A study of Homo sapiens with 18 samples.

Results

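The genes described here are 7 members of the cell-surface serine protease system of epithelia. They are the proteases ST14 (matriptase), PRSS8 (prostasin) and TMPRSS4 and the inhibitors SPINT1 (HAI-1), SPINT2 (HAI-2), SLPI and PI3 (elafin). They were taken from a fixed list by symbol in the array annotation. The matching did not use their values, but the list was chosen with earlier results of these data known. All 7 were measured, each by 1 probe set, among 18417 genes in all. RNA came from a pair of immortalised lines of human breast epithelium that do not form tumours, HMLE (cells carrying telomerase and T antigens, named HMLEC in the cell line label) and MCF10A (spontaneously immortalised). In each line, stable clones had been transfected with an empty vector, a Snail expression vector or a Twist expression vector, giving 6 groups of 3 arrays. All groups were grown in the same serum-containing DMEM/F12 medium and harvested during logarithmic growth. The labels do not give the species of the inserts or the number of clones, and it is not stated that replicates came from separate cultures. The spread behind the p-values is that between these arrays, and it may be technical.

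Matriptase is a transmembrane serine protease and prostasin is a serine protease held at the membrane by a lipid anchor. The pair activate each other in epithelia and process further proteins, among them the epithelial sodium channel and growth factor precursors. HAI-1 and HAI-2 are membrane proteins with Kunitz domains that bind and block matriptase and prostasin. SLPI and elafin are small secreted inhibitors with a WAP domain, best known for blocking neutrophil elastase at mucosal surfaces. TMPRSS4 is a further transmembrane serine protease, raised in several carcinomas. SNAI1 encodes Snail and TWIST1 encodes Twist, both known as repressors of epithelial genes, and Snail binds the E-box sequence CAGGTG in the promoter of E-cadherin (gene CDH1).

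The promoter sequence available for these genes was searched for this E-box. SPINT1 was the only one of the 7 genes matched in the RefSeq promoter table (GRCh38.p14), with 2 annotated starts. The motif CAGGTG, counted on both strands (CACCTG on the other), was present in 17.49% of 35116 windows covering the 250 bases before an annotated start. The 250 bases before the first SPINT1 start, chr15:40843798-40844047 on the plus strand, held none of it and had a GC content of 80.4%. The 250 bases before the second start, chr15:40844227-40844476, held 1 copy, which began 26 bases before that start and is in capitals in the short stretch chr15:40844439-40844468. The sequences are printed to show the window in which the letters are missing and the site where they are present. A match is a description of the letters and not a measured binding site. With sequence for 1 of the 7 genes, the search cannot say why the members moved together.
SPINT1 before first start: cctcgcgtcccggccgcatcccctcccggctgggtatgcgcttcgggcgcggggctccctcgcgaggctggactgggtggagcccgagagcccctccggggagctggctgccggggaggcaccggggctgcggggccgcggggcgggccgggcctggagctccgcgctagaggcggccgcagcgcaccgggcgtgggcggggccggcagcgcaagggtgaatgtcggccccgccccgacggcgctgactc
SPINT1 E-box before second start: tcccgggctgatCAGGTGtgtctcctcctc

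The labels were checked first. SNAI1 stood at 12.53 and 12.49 (log2, means of 3 arrays) in HMLE Snail and MCF10A Snail arrays, against 7.39 and 8.32 in the vector arrays. TWIST1 was 9.69 in HMLE vector, 11.49 in HMLE Twist and 10.81 in HMLE Snail arrays, where it rose by 1.12 ± 0.07 without a Twist insert. In the MCF10A series TWIST1 was 10.07 with vector, 10.30 with Snail and 10.99 on the arrays labelled Twist, a rise of 0.92 ± 0.07 on the latter. MTAP, which lies in the chromosome region that MCF10A cells have lost, was 5.98 in MCF10A vector, 6.02 in MCF10A Snail and 10.80 in the arrays labelled MCF10A Twist, against 9.83 to 10.26 in the HMLE groups. CDKN2A and CDKN2B, also listed for line identity, were 10.67 and 10.45 on the labelled Twist arrays. They were 8.26 and 7.90 in MCF10A vector and 9.93 and 9.80 in HMLE vector. SNAI1, at 8.25 on the labelled arrays, was nearer to MCF10A vector (8.32) than to HMLE vector (7.39). The arrays labelled MCF10A Twist thus went against their label on MTAP. On CDKN2A and CDKN2B they were also nearer to HMLE vector than to MCF10A vector. They are therefore called by their label throughout. The members' differences and the list counts are also given for them against HMLE vector. Array medians lay between 7.698 and 7.793, and replicates correlated at 0.99 to 0.997 across probe sets. The number of arrays limits the precision.

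All 7 genes were lower with Snail and with Twist in HMLE cells, with Snail in MCF10A cells and on the arrays labelled MCF10A Twist. For 6 of them the fall with Snail was smaller in MCF10A than in HMLE cells by the test given below, TMPRSS4 being the gene that did not pass it. In this text a gene rose or fell when limma's adjusted p (Benjamini-Hochberg over 18417 genes) was under 0.05. In HMLE cells, 7 of 7 fell with Snail, with a median log2 difference of -3.55 against -0.01 over all genes. Of all genes tested, 24.8% fell in that comparison, and 4.41% fell at least 2-fold as all 7 members did. With Twist in HMLE cells 7 of 7 fell, each at least 2-fold, with a median of -3.68 against 0.02 over all genes, where 20.7% of all genes fell and 4.28% fell at least 2-fold.

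In MCF10A cells with Snail, 7 of 7 fell, but the median was -0.91 and only ST14 and PI3 fell at least 2-fold. PI3 lay at the limit, so that the 2-fold count was 1 without MCF10A vector replicate 3 (PI3 -0.96) or MCF10A Snail replicate 2 (PI3 -0.90), and 3 without MCF10A Snail replicate 1, where SPINT1 reached -1.01. There 12% of all genes fell and 1.07% fell at least 2-fold, and the median of all genes was -0.02. Between the arrays labelled MCF10A Twist and MCF10A vector, 7 of 7 fell and 6 fell at least 2-fold, TMPRSS4 being the exception, with 23.9% and 5.33% of all genes doing so. Against HMLE vector the same labelled arrays also had 7 of 7 genes lower, each at least 2-fold, where 24% of all genes fell and 4.97% fell at least 2-fold. In that comparison the log2 differences were -3.17 ± 0.18 for ST14, -2.80 ± 0.09 for PRSS8, -1.03 ± 0.08 for TMPRSS4, -3.60 ± 0.07 for SPINT1, -3.36 ± 0.12 for SPINT2 and -3.88 ± 0.11 for PI3, with SLPI given below. The 3 arrays of each insert and the 3 vector arrays did not overlap for any of the 7 genes in these comparisons, a separation seen for 57.4%, 47.1%, 38.3%, 56.7% and 55.4% of all genes, in the order given. The Snail and Twist comparisons within a line share the same vector arrays, so they are not independent of each other. In RNA from whole cultures, fewer cells expressing a gene and less RNA per cell cannot be told apart.

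**Figure D1:**
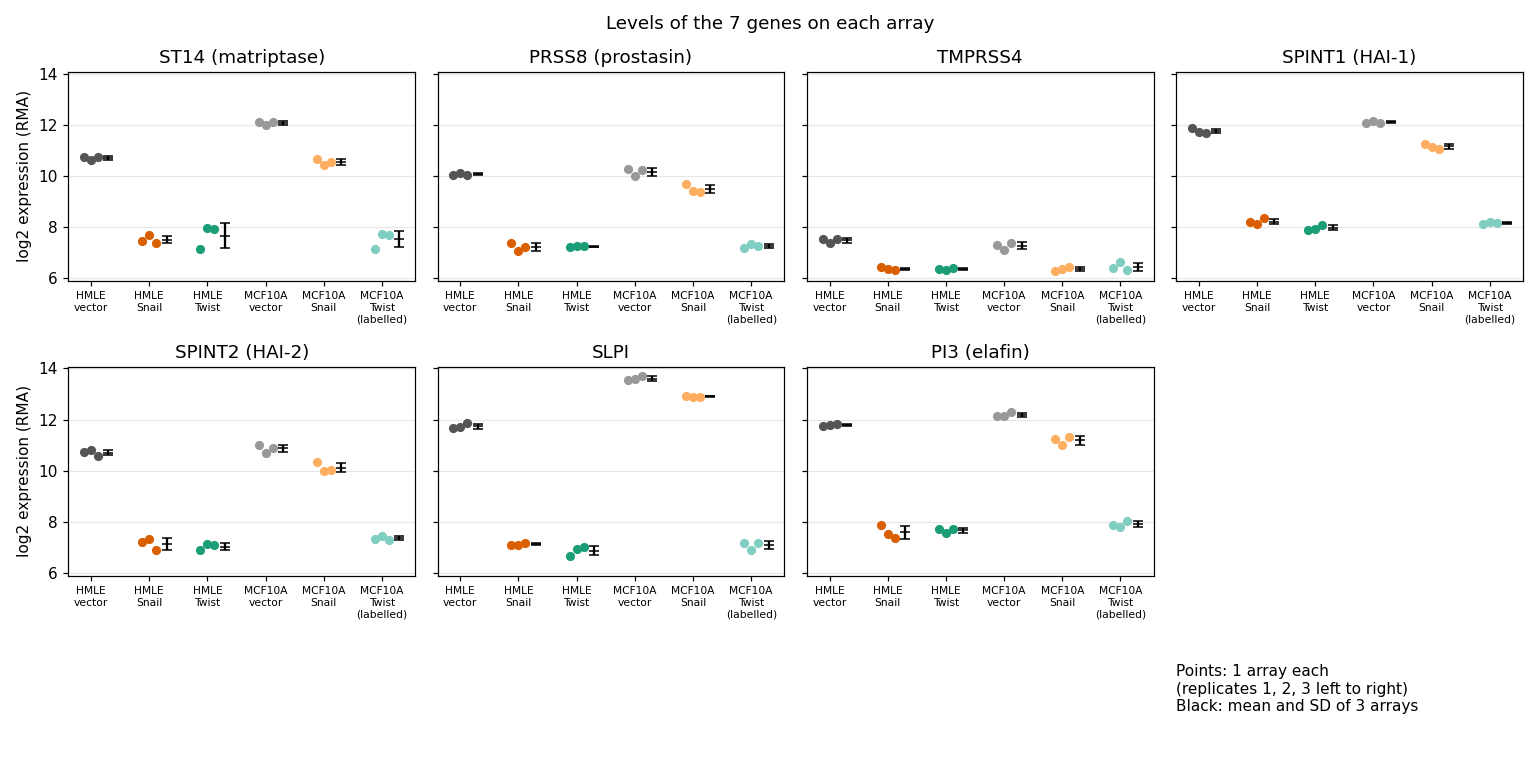
Level of each of the 7 genes (log2 RMA expression, vertical axis) on each array, by group. Points are arrays and the black marks are the mean and SD of 3 arrays. HMLE Snail, HMLE Twist and the arrays labelled MCF10A Twist lie low in every panel. MCF10A Snail arrays lie far above these low groups in every panel except that of TMPRSS4.

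Matriptase, the protease that starts the cascade, fell in all 4 comparisons with vector. On HMLE vector arrays ST14 stood at 10.74, 10.60 and 10.74 (log2), against 7.45, 7.67 and 7.39 with Snail and 7.12, 7.96 and 7.91 with Twist. In the MCF10A series it stood at 12.11, 11.98 and 12.09 with vector, 10.65, 10.41 and 10.53 with Snail, and 7.15, 7.74 and 7.67 on the arrays labelled Twist. MCF10A Snail arrays thus kept ST14 at about the HMLE vector level, while the other Snail and Twist arrays were low. ST14 was 9.15-fold lower with Snail in HMLE cells (log2 difference -3.19 ± 0.18 SE, limma adjusted p = 1.49e-10) and 8.18-fold lower with Twist (-3.03 ± 0.18). In MCF10A cells it was 2.89-fold lower with Snail (-1.53 ± 0.18, limma adjusted p = 8.33e-06), the largest Snail effect of the 7 genes in that line. On the labelled Twist arrays it was 23.2-fold lower than in MCF10A vector (-4.54 ± 0.18). The SD of ST14 was 0.47 in HMLE Twist and 0.32 in the labelled Twist arrays, where replicate 1 was the low array in both, against 0.07 to 0.15 in the other groups. Without replicate 1, the fall with Twist in HMLE cells was 2.76 on the log2 scale.

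Prostasin, which matriptase activates and which can in turn activate matriptase, kept most of its level in MCF10A Snail cells. PRSS8 stood at 10.04, 10.10 and 10.03 on HMLE vector arrays, at 7.36, 7.07 and 7.20 with Snail and at 7.20, 7.25 and 7.25 with Twist. With MCF10A labels the values were 10.26, 9.97 and 10.24 for vector, 9.68, 9.40 and 9.38 for Snail, and 7.18, 7.32 and 7.26 for Twist. The 3 low groups lay within 0.3 of each other array by array, far below both vector groups. The fall was 7.20-fold with Snail in HMLE cells (-2.85 ± 0.09, limma adjusted p = 7.58e-14), 7.09-fold with Twist (-2.83 ± 0.09) and 7.48-fold on the labelled MCF10A Twist arrays (-2.90 ± 0.09). With Snail in MCF10A cells it was 1.59-fold (-0.67 ± 0.09, limma adjusted p = 3.47e-05).

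TMPRSS4 gave a dim signal, with a mean of 6.71 over the 18 arrays against a median of 8.54 over all genes. Differences at the dim end are compressed by RMA, and its changes may be understated. Its values were 7.54, 7.36 and 7.52 on HMLE vector arrays, 6.41, 6.35 and 6.33 with Snail and 6.37, 6.33 and 6.38 with Twist. On MCF10A arrays they were 7.29, 7.11 and 7.37 with vector and 6.27, 6.34 and 6.44 with Snail, and the arrays labelled Twist gave 6.38, 6.62 and 6.33. Unlike the other members, TMPRSS4 was as low with Snail in MCF10A cells as in the 3 other low groups. It fell 2.16-fold with Snail and 2.17-fold with Twist in HMLE cells, 1.88-fold with Snail in MCF10A cells (-0.91 ± 0.08, limma adjusted p = 3.19e-07) and 1.76-fold on the labelled Twist arrays. Whether these low values are above background is not known, since no detection calls were used.

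HAI-1, the main membrane inhibitor of matriptase, fell somewhat more than its protease in HMLE cells in the measured values. Both falls may be understated, since the low values of both genes lay near the array medians of 7.698 to 7.793. SPINT1 stood at 11.86, 11.72 and 11.68 on HMLE vector arrays, at 8.18, 8.11 and 8.33 with Snail and at 7.90, 7.93 and 8.09 with Twist. For MCF10A the arrays gave 12.08, 12.16 and 12.08 with vector, 11.26, 11.14 and 11.05 with Snail, and 8.12, 8.19 and 8.16 where labelled Twist. Its replicates were tight, with SDs between 0.03 and 0.11. SPINT1 was 11.7-fold lower with Snail in HMLE cells (-3.55 ± 0.07, limma adjusted p = 3.26e-16) and 13.8-fold lower with Twist (-3.78 ± 0.07). It was 1.94-fold lower with Snail in MCF10A cells (-0.96 ± 0.07, limma adjusted p = 4.36e-08) and 15.4-fold lower on the labelled Twist arrays (-3.95 ± 0.07).

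HAI-2, which inhibits both matriptase and prostasin, followed HAI-1 closely. SPINT2 values were 10.74, 10.80 and 10.58 on HMLE vector arrays, 7.20, 7.31 and 6.89 with Snail and 6.88, 7.14 and 7.08 with Twist. With vector in MCF10A cells they were 11.01, 10.70 and 10.90, with Snail 10.33, 9.99 and 10.04, and on the labelled Twist arrays 7.31, 7.45 and 7.30. Arrays of both vector groups and of MCF10A Snail lay at 9.99 or above, and those of the remaining groups at 7.45 or below. The fall was 11.9-fold with Snail in HMLE cells (-3.58 ± 0.12, limma adjusted p = 9.23e-14), 12.8-fold with Twist (-3.68 ± 0.12), 1.69-fold with Snail in MCF10A cells (-0.75 ± 0.12, limma adjusted p = 0.000128) and 11.4-fold on the labelled Twist arrays (-3.51 ± 0.12).

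SLPI, the secreted inhibitor that protects mucosa from neutrophil elastase, had the widest range of the 7 genes, 6.73 on the log2 scale between its highest and lowest group mean (106-fold). It stood at 11.66, 11.71 and 11.85 on HMLE vector arrays, at 7.10, 7.10 and 7.18 with Snail and at 6.67, 6.96 and 6.99 with Twist. In MCF10A cells it stood at 13.54, 13.59 and 13.69 with vector and at 12.94, 12.88 and 12.89 with Snail, and the arrays labelled Twist had 7.17, 6.90 and 7.16. MCF10A Snail arrays were thus above HMLE vector arrays for SLPI. The fall was 24.5-fold with Snail in HMLE cells (-4.62 ± 0.09, limma adjusted p = 1.12e-16) and 29.2-fold with Twist (-4.87 ± 0.09). Snail lowered it 1.62-fold in MCF10A cells (-0.70 ± 0.09, limma adjusted p = 1.32e-05). On the labelled Twist arrays it was 92.2-fold below MCF10A vector (-6.53 ± 0.09) and 25.3-fold below HMLE vector (-4.66 ± 0.09). Ordered from the largest fall, SLPI ranked 24 of 18417 genes with Snail in HMLE cells, 398 with Snail in MCF10A cells and 5 on the labelled Twist arrays against MCF10A vector.

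Elafin, the other WAP-domain inhibitor, is encoded by PI3 near SLPI on chromosome 20. PI3 values were 11.75, 11.77 and 11.83 on HMLE vector arrays, 7.86, 7.54 and 7.37 with Snail and 7.71, 7.55 and 7.72 with Twist. In MCF10A cells the vector arrays gave 12.15, 12.15 and 12.28, the Snail arrays 11.24, 10.996 and 11.33, and the labelled Twist arrays 7.89, 7.81 and 8.03. As for the HAI genes, MCF10A Snail arrays lay between the vector arrays and the low groups, much nearer the vector arrays. PI3 was 18.3-fold lower with Snail (-4.19 ± 0.11, limma adjusted p = 5.08e-15) and 17.5-fold lower with Twist (-4.13 ± 0.11) in HMLE cells. It was 2.00-fold lower with Snail in MCF10A cells (-1.0005 ± 0.11, limma adjusted p = 3.19e-06) and 19.5-fold lower on the labelled Twist arrays (-4.28 ± 0.11).

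**Figure D2:**
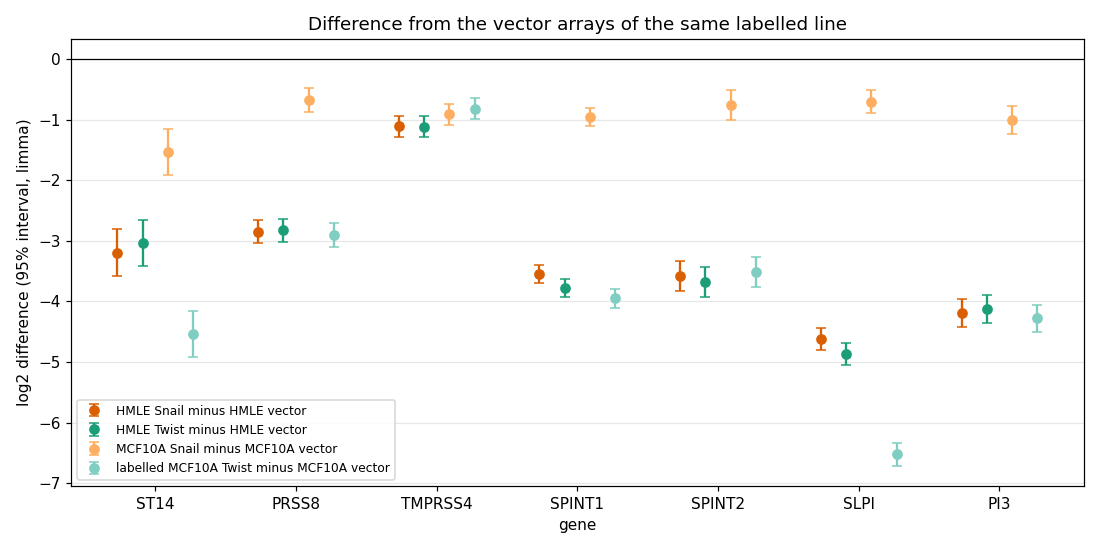
Log2 difference of each gene from the vector arrays of the same labelled line (vertical axis), with 95% intervals from limma, for the 7 genes along the horizontal axis. The MCF10A Snail points lie between -1.53 and -0.67, and for every gene but TMPRSS4 the other 3 comparisons lie at -2.83 or below.

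**Figure D3:**
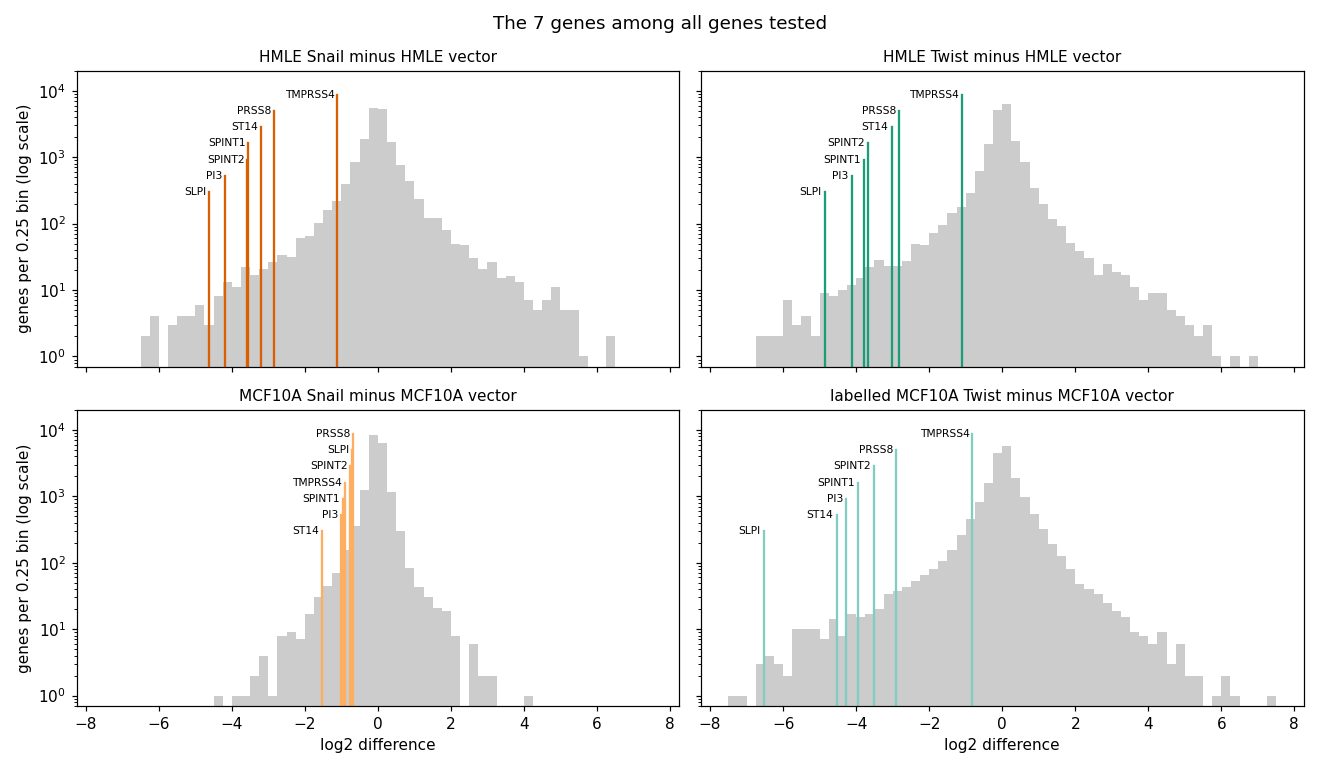
Distribution of log2 differences of all 18417 genes (grey bars, number of genes per 0.25 bin on a log scale) in the 4 comparisons with vector, with the 7 genes as labelled lines. All 7 lines lie to the left of 0 in every panel, and the whole distribution is narrower for MCF10A Snail.

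The lines were compared in their vector arrays to see where the members started. Of the 7 genes, 4 were higher in MCF10A vector than in HMLE vector, where 20.6% of all genes were higher and 23.4% lower. Of all genes, 3.03% were at least 2-fold higher, as SLPI and ST14 were. SLPI was 3.64-fold higher (1.87 ± 0.09, limma adjusted p = 1.96e-11) and ST14 2.58-fold higher (1.37 ± 0.18, limma adjusted p = 7.83e-06), while PI3 and SPINT1 were higher by 0.41 ± 0.11 and 0.35 ± 0.07 on the log2 scale. For these 4 genes the groups did not overlap, as for 53.6% of all genes. TMPRSS4 was lower by 0.21 ± 0.08 (log2 difference -0.21, limma adjusted p = 0.041), but its arrays overlapped, and this call was lost without HMLE vector replicate 1 (-0.18) or 3 (-0.19) and without MCF10A vector replicate 1 (-0.23) or 2 (-0.14). PRSS8 and SPINT2 did not pass the test, with differences of 0.10 (95% interval -0.09 to 0.30) and 0.16 (-0.09 to 0.41).

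Snail lowered 6 of the 7 genes less in MCF10A than in HMLE cells, tested as the difference of the log2 differences in the same model. The same test called 20.2% of all genes positive, 4.04% by at least 2-fold as for these 6, and 19.9% negative. The gap was widest for SLPI, 3.92 ± 0.12 (limma adjusted p = 2.58e-13), followed by PI3 at 3.19 ± 0.15 and SPINT2 at 2.82 ± 0.16. SPINT1 had a gap of 2.59 ± 0.10, PRSS8 of 2.18 ± 0.13 and ST14 of 1.66 ± 0.26. TMPRSS4 did not pass, with 0.20 ± 0.11 (95% interval -0.04 to 0.45, limma adjusted p = 0.19). It stood at the same dim level in HMLE Snail (6.36) and MCF10A Snail arrays (6.35). Differences may be compressed there, so this test cannot tell whether its fall differed between the lines. SNAI1 itself reached near-equal levels in the Snail arrays of the lines, as given above, but from a higher vector level in MCF10A cells its rise was smaller there, 4.17 against 5.14 (difference -0.98 ± 0.13, limma adjusted p = 7.35e-06). Each arm is set against the vector arrays of its own line, so the higher starting level of ST14 and SLPI in MCF10A cells is part of this comparison.

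Snail and Twist gave similar measured levels of the 7 genes in HMLE cells. These levels lay near or below the array medians, where differences may be compressed, so a difference between the inserts could be hidden. SPINT1 was higher with Snail than with Twist by 0.23 ± 0.07 (limma adjusted p = 0.0195) and SLPI by 0.25 ± 0.09 (limma adjusted p = 0.0357), both without overlap of the arrays. Higher values with Snail were found for 14.3% of all genes, lower ones for 17.9%, and arrays without overlap for 40.7%. The other 5 genes did not pass. Their differences were -0.16 for ST14 (95% interval -0.55 to 0.22), -0.02 for PRSS8 (-0.21 to 0.17), 0.00 for TMPRSS4 (-0.17 to 0.18), 0.10 for SPINT2 (-0.15 to 0.35) and -0.07 for PI3 (-0.30 to 0.16). Both calls depended on single arrays. SLPI did not pass without any one of the HMLE Snail arrays (0.22 to 0.26) or without HMLE Twist replicate 1 (0.15), and SPINT1 did not pass without HMLE Snail replicate 3 (0.17) or HMLE Twist replicate 1 (0.20) or 2 (0.21). Without HMLE Twist replicate 1, ST14 was lower with Snail (-0.43, limma adjusted p = 0.0239).

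MCF10A Snail arrays were far above the arrays labelled MCF10A Twist for 6 of the 7 genes, each more than 2-fold, where 22.5% of all genes were higher and 4.44% at least 2-fold higher. The difference was 5.83 ± 0.09 for SLPI (56.8-fold), 3.28 ± 0.11 for PI3, 3.01 ± 0.18 for ST14, 2.99 ± 0.07 for SPINT1, 2.76 ± 0.12 for SPINT2 and 2.23 ± 0.09 for PRSS8. TMPRSS4 did not pass (-0.09, 95% interval -0.27 to 0.08, limma adjusted p = 0.378), in a comparison where 27% of all genes were lower. The labelled arrays go against their line label on MTAP and lie nearer to HMLE vector on CDKN2A and CDKN2B. Insert and line therefore cannot be told apart in this comparison. Set against HMLE Twist instead, the labelled arrays were higher for SPINT2 only (0.32 ± 0.12, limma adjusted p = 0.04), where 17.4% of all genes were higher. In that comparison 18.8% of all genes were lower. SPINT1, SPINT2 and PI3 had arrays without overlap there, as did 40.4% of all genes, but 6 of the 7 genes, SPINT1 and PI3 included, did not pass, with differences from -0.14 for ST14 (95% interval -0.52 to 0.24) to 0.25 for PI3 (0.02 to 0.48). The SPINT2 call was lost (0.24 to 0.35) without any 1 of the 3 labelled arrays or without HMLE Twist replicate 1 or 3. ST14 was lower on the labelled arrays without HMLE Twist replicate 1 (-0.41, limma adjusted p = 0.0274). SLPI was higher without HMLE Twist replicate 3 (0.27, limma adjusted p = 0.042) or labelled replicate 2 (0.29, limma adjusted p = 0.0156), and SPINT1 without HMLE Twist replicate 3 (0.24, limma adjusted p = 0.0223).

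The order of the groups was nearly shared by the members. MCF10A vector had the highest mean for 6 genes and HMLE vector for TMPRSS4. MCF10A Snail came next below both vector groups for PRSS8, SPINT1, SPINT2 and PI3, with the step from HMLE vector to MCF10A Snail measuring 0.57 for PRSS8, 0.60 for SPINT1, 0.59 for SPINT2 and 0.59 for PI3 on the log2 scale. For ST14 that step was 0.16 ± 0.18 and did not pass (limma adjusted p = 0.547). For SLPI MCF10A Snail stood 1.16 ± 0.09 above HMLE vector (limma adjusted p = 9.2e-09). The 3 lowest groups of all members but TMPRSS4 were HMLE Snail, HMLE Twist and the labelled MCF10A Twist arrays. No pair of neighbours among them in the order passed the test, but the highest and lowest of them differed for SPINT1, SPINT2, SLPI and PI3. For TMPRSS4 MCF10A Snail joined the low groups, again with no neighbouring pair passing. The low levels lay near or below the array medians, where differences may be compressed.

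The balance of protease and inhibitor was described as the change in the log2 protease value minus the log2 inhibitor value, without a test. With Snail in HMLE cells ST14 fell less than SPINT1, so that the ST14 minus SPINT1 value rose by 0.35, and with Twist by 0.75. With Snail in MCF10A cells the sign was the opposite, -0.57. On the labelled Twist arrays the value was -0.59 against MCF10A vector and 0.42 against HMLE vector, a control added after seeing the data. Against SPINT2 the ST14 values were 0.38 and 0.64 in HMLE cells and -0.78 with Snail in MCF10A cells. They were -1.02 on the labelled Twist arrays against MCF10A vector and 0.18 against HMLE vector, so the sign for ST14 on these arrays depended on the control, and against HMLE vector the arrays overlapped for both inhibitors. For PRSS8 against SPINT1 the change was positive in each case, at 0.70 and 0.96 in HMLE cells with Snail and Twist, 0.28 with Snail in MCF10A cells and 1.04 on the labelled Twist arrays against MCF10A vector. The PRSS8 minus SPINT2 value changed by 0.73, 0.85, 0.08 and 0.61 in the same order. Against HMLE vector the labelled arrays gave 0.80 for PRSS8 minus SPINT1 and 0.55 for PRSS8 minus SPINT2. The SD of the ST14 minus SPINT1 value was 0.42 within the HMLE Twist arrays and 0.10 to 0.29 in the other groups. In the low groups these genes lay near or below the array medians, where falls may be understated. PRSS8 also started lower, at 10.06 and 10.16 in HMLE and MCF10A vector arrays, against 11.75 and 12.10 for SPINT1. The part of this in the changes was not tested. These are RNA values and do not give the balance of the proteins.

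Genes with the pattern most like each member were found as the 3 with the smallest root mean square difference over the 6 group means, each gene centred on its own mean. These points share arrays and the strong split between the low and high groups, so the correlations over 6 groups are descriptive. The nearest gene to SPINT1 among all genes was SPINT2 (0.132, Pearson r = 0.998), and SPINT1 was the second nearest to SPINT2 after PRRG4 (0.0744), a transmembrane protein. PI3 lay closest to HOOK1 (0.105), an adaptor linked to microtubules, then to SPINT1 (0.25) and CDS1 (0.253), an enzyme of phospholipid synthesis. SLPI lay closest to EHF (0.199), an epithelial ETS transcription factor, then to MPZL2 (0.243), an adhesion molecule, and DSG3 (0.357), a desmosomal cadherin. PRSS8 lay closest to TINAGL1 (0.134), a secreted matrix protein, MST1R (0.135), the receptor for macrophage-stimulating protein, and MAP7 (0.144), a microtubule-associated protein. ST14 had looser neighbours, SGPP2 (0.25), a sphingosine phosphate phosphatase, FAM83A (0.311) and SPINT1 (0.318). The remaining neighbours were FAM83A and PRRG4 for SPINT1 and GJB5, a connexin, for SPINT2. TMPRSS4, with group means spanning 1.12, was not searched.

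**Figure D4:**
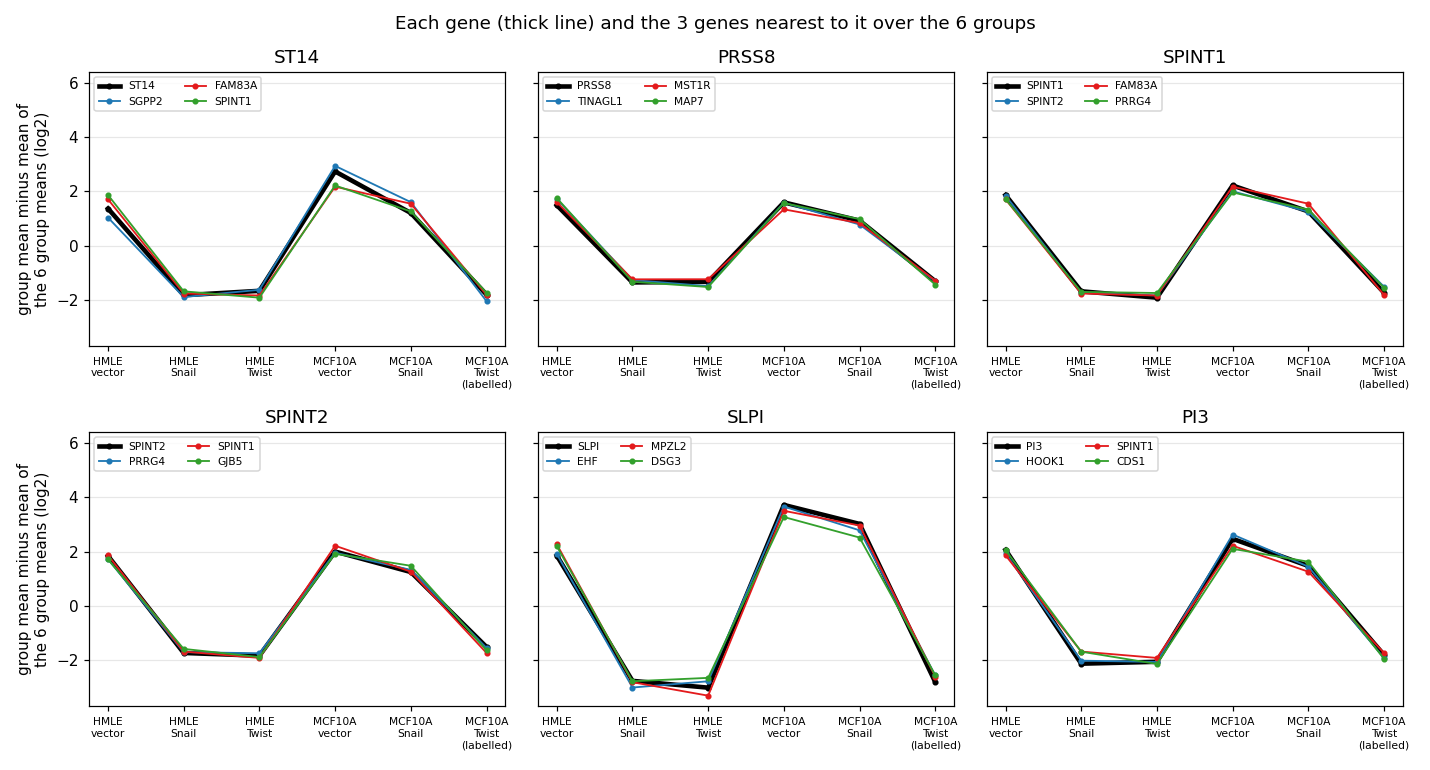
Group means (log2, each gene centred on the mean of its 6 group means, vertical axis) over the 6 groups for 6 members (thick black line) and the 3 genes nearest to each. Every line is high in both vector groups and MCF10A Snail and low in the other 3 groups.

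The other genes of the system, grouped by role, did not all follow the 7 members. Of all genes, 22.9% rose with Snail and 23% with Twist in HMLE cells, 10.7% with Snail in MCF10A cells and 26.5% on the labelled Twist arrays, beside the shares that fell given above. Among 18 further membrane-anchored serine proteases, 1 rose and 4 fell with Snail in HMLE cells, 1 and 3 with Twist, 0 and 2 with Snail in MCF10A cells and 0 and 3 on the labelled Twist arrays. TMPRSS15, the intestinal enteropeptidase, rose by 5.11 ± 0.15 with Snail and 5.15 ± 0.15 with Twist in HMLE cells, from 4.65 to 9.75 and 9.80, and fell by 0.57 ± 0.15 with Snail in MCF10A cells. TMPRSS11E, a relative of matriptase found in squamous epithelium, changed by -2.23 ± 0.14 and -2.37 ± 0.14 in HMLE cells, -0.41 ± 0.14 with Snail in MCF10A cells and -0.63 ± 0.14 on the labelled Twist arrays. PRSS21, a testis-type membrane protease, fell by 0.54 and 0.63 in HMLE cells.

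Of 9 other Kunitz-domain genes, 3 rose and 1 fell with Snail in HMLE cells, 1 and 2 with Twist, 1 and 0 with Snail in MCF10A cells and 3 and 0 on the labelled Twist arrays. TFPI, the inhibitor of tissue factor coagulation, rose by 5.15 ± 0.08 and 4.99 ± 0.08 in HMLE cells, from 5.63 in vector to 10.78 and 10.61, opposite to SPINT1 and SPINT2. In MCF10A cells TFPI was already at 10.39 with vector, and stood at 10.57 with Snail. TFPI2 differed between the inserts in HMLE cells, with a change of 0.39 ± 0.13 for Snail and -2.10 ± 0.13 for Twist, and was 5.03 ± 0.13 higher on the labelled Twist arrays than in MCF10A vector. Among 11 other WAP-domain genes, 0 rose, and 3, 3, 2 and 2 fell in the 4 comparisons in the same order. WFDC5 changed by -0.83, -0.58, -0.66 and -0.35 (SE 0.12), much less than SLPI and PI3 in HMLE cells.

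Serpins and other inhibitors of trypsin-like or elastase-like proteases gave 1 of 10 rising and 6 falling with Snail and with Twist in HMLE cells, 2 and 5 with Snail in MCF10A cells and 1 and 7 on the labelled Twist arrays. SERPINA1 (alpha-1-antitrypsin), the main plasma inhibitor of neutrophil elastase, changed by -3.57, -4.28, -1.74 and -3.60 (SE 0.08). SERPINB3 changed by -3.54, -3.40, -1.66 and -6.25 (SE 0.25), and SERPINB4 is so like it in sequence that their probe sets may share signal. SERPINE2 (protease nexin), which inhibits prostasin, rose by 0.24, 0.70, 1.46 and 3.03 (SE 0.06). The 4 listed genes of the neutrophil serine protease family were ELANE (elastase), CTSG, PRTN3 and AZU1. They did not pass in any of the 4 comparisons, with list medians of -0.03, 0.10, -0.09 and 0.03.

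Of 19 measured substrates and targets of the system, 2 rose and 15 fell with Snail and with Twist in HMLE cells, with list medians of -0.90 and -1.49. With Snail in MCF10A cells 2 rose and 12 fell (median -0.29), and on the labelled Twist arrays 3 rose and 12 fell (median -2.04). EPCAM, an adhesion protein cleaved by matriptase, changed by -5.72, -5.94, -1.65 and -5.51 (SE 0.11). SCNN1A, the sodium channel subunit, changed by -3.54, -4.43, -0.25 and -4.65 (SE 0.08), and KLK5, an epidermal kallikrein, by -3.45, -3.59, -1.99 and -2.04 (SE 0.11). KLK7, a further kallikrein, fell by 3.75 ± 0.09 with Snail in MCF10A cells. LAMB3, a laminin chain, changed by -3.09 and -3.43 (SE 0.08) in HMLE cells but rose by 0.53 ± 0.08 with Snail in MCF10A cells.

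Among 10 regulators of epithelial genes, 1 rose and 8 fell with Snail in HMLE cells, 2 and 8 with Twist, 0 and 8 with Snail in MCF10A cells and 1 and 7 on the labelled Twist arrays. EHF, the gene nearest in pattern to SLPI, changed by -4.92, -4.69, -0.87 and -6.22 (SE 0.12). GRHL2, which maintains epithelial junction genes, changed by -4.19 and -4.07 (SE 0.06) in HMLE cells, and stood at 6.10 in MCF10A vector arrays against 10.21 in HMLE vector. Its part in the members' levels was not tested. ELF3, an epithelial ETS factor, changed by -2.85 ± 0.11 with Snail in MCF10A cells and by -3.00 ± 0.11 on the labelled Twist arrays.

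Against HMLE vector, where 25.2% of all genes rose and 24% fell, the labelled Twist arrays gave these counts for the same lists. Of the further membrane-anchored proteases 1 rose and 3 fell, of the other Kunitz-domain genes 3 rose and 0 fell, and of the other WAP-domain genes 0 rose and 3 fell. Of the serpins and other inhibitors 2 rose and 6 fell, and of the substrates and targets 2 rose and 15 fell, with a median of -1.13. Of the regulators 1 rose and 8 fell, and the 4 neutrophil proteases did not pass. TFPI was 5.30 higher on the labelled arrays than in HMLE vector on the log2 scale, whereas TMPRSS11E was lower (-2.54).

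**Figure D5:**
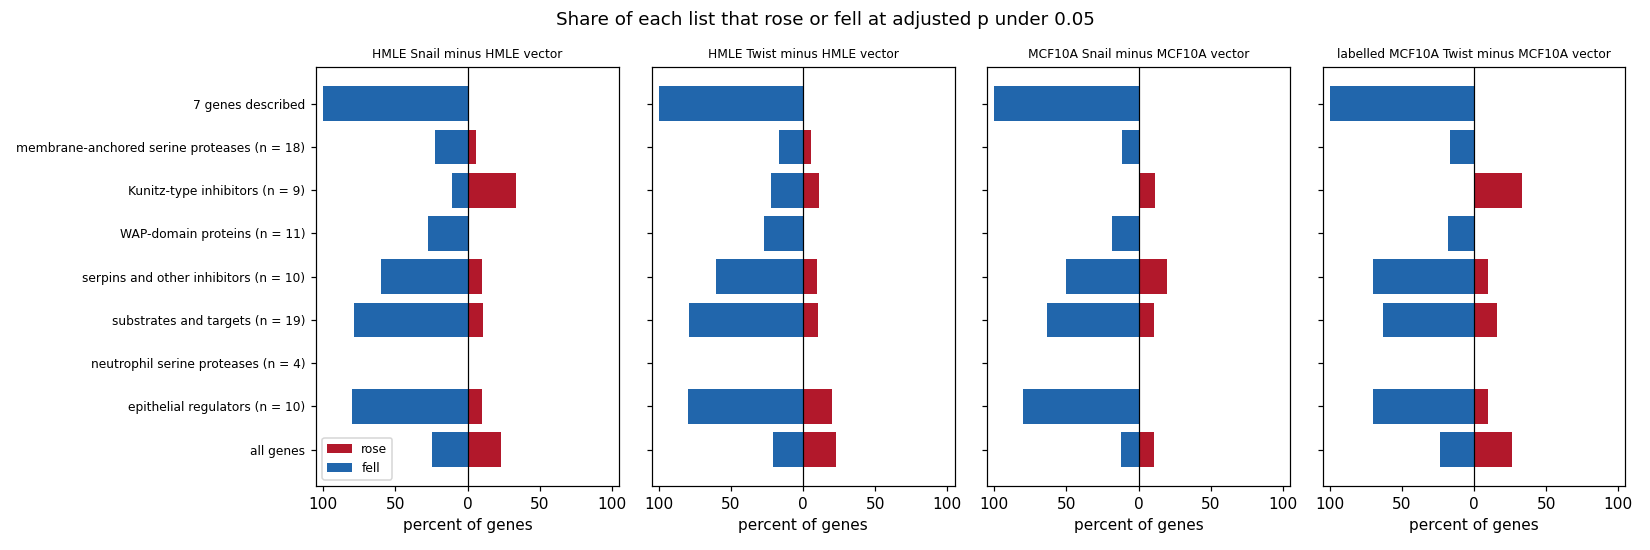
Percent of the measured genes of each list that rose (red, right) or fell (blue, left) at an adjusted p under 0.05, in the 4 comparisons with vector, with the 7 genes at the top and all genes at the bottom. The 7 genes reach 100% fallen in every panel and the neutrophil proteases 0% in either direction.

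In the comparisons with vector of the same labelled line epithelial markers fell and 4 to 8 of 8 mesenchymal markers rose. Some leukocyte and endothelial markers were also called. The labelled cell type is epithelial, and the vector arrays carried its markers. Of 5 epithelial markers, 5 fell in each comparison with vector, with summed log2 levels of 58.9 to 59.5 in HMLE vector, 40.8 to 41.2 with Snail and 38.8 to 39.9 with Twist, and of 61.5 to 61.8, 57.6 to 58.1 and 40.4 to 41.3 in the MCF10A series in that order. Of 4 basal markers, 4 fell in each comparison except with Snail in MCF10A cells, where 1 rose and 1 fell. Of 8 mesenchymal markers, 8 rose in HMLE cells with either insert, 4 with Snail in MCF10A cells and 7 on the labelled Twist arrays. Against HMLE vector the labelled arrays had 5 epithelial and 4 basal markers fallen, 7 mesenchymal markers risen and 1 fallen, 1 endothelial marker fallen and 0 leukocyte markers called. The mesenchymal markers had summed log2 levels of 65.8 to 66.8 in HMLE vector, 92.5 to 92.8 with Snail and 92.4 to 93.0 with Twist, against 66.5 to 67.2, 69.4 to 69.9 and 86.5 to 86.6 in the MCF10A series. Among 5 leukocyte markers 2, 2, 1 and 1 rose in the 4 comparisons. CD68 rose in each of them, by 0.72, 0.73, 0.66 and 1.56 (SE 0.07). Among 5 endothelial markers 2 rose with Snail in HMLE cells and 1, 1 and 2 fell in the other comparisons. Summed levels of leukocyte markers stayed between 33.03 and 35.99 and those of endothelial markers between 32.6 and 34.8 on all arrays. Leukocyte sums on insert arrays lay above those of the vector arrays of the same labelled line. In HMLE cells they were 34.3 to 34.8 with vector and 35.1 to 35.9 with Snail. PTPRC, the general leukocyte marker, had group means between 4.59 and 5.23. The part of these markers in the levels of the 7 genes was not tested.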

How the data were processed

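The platform was the Affymetrix Human Gene 1.0 ST array, with biotin-labelled total RNA of 18 samples. The deposited values are log2 expression levels of 33297 probe sets, and per the submitters' processing notes they come from RMA. Not given in the sources used here are the RMA version, the genome build and whether all arrays were normalised together. Groups were taken from sample titles. Gene names came from the platform annotation: 19460 probe sets had 1 symbol, 1754 several and 12083 were not listed. Symbols were updated by gene ID for 19429, and the brightest probe set on average was kept for each gene, leaving 18417 genes. No 2 columns were identical.

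Differences were fitted with limma 3.58.1 (R 4.3.3) as 6 group means over 18 arrays, with 12 residual degrees of freedom and Benjamini-Hochberg adjustment over all genes. In simulated data for HMLE Snail against vector over 18417 genes, 88% of 50 genes with a log2 change of 0.5 and 100% of the 50 at 1, 1.5 and 3 were each called. The 7 genes, the lists and the tests were chosen with earlier results of these data known. At most 4 called genes per list and comparison, those with the largest change, could be named, together with SNAI1, TWIST1, MTAP, CDH1 and the 3 nearest genes of each member spanning at least 2. Replicate numbers were checked by the correlation of deviations from group means. All 3 were over 0.1 between MCF10A Snail and labelled MCF10A Twist arrays (0.446, 0.368 and 0.107) and between labelled MCF10A Twist and HMLE Twist arrays (0.64, 0.536 and 0.126), so the numbers were taken to pair these groups. Alternatives covered median centring, quantile normalisation, a trended and robust variance, array weights, averaged probe sets, a dim-gene filter, fewer groups in the fit, replicate blocks, stricter thresholds and each array left out. The 2-fold counts with each array left out, and HMLE vector as control for the protease minus inhibitor values, were added after seeing the data. Figures were drawn with matplotlib 3.10.9.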

Additional observations from a re-analysis of the deposited data

Results flagged for a closer look

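The Snail effect differed between the lines for 6 of the 7 genes by a test of the difference itself in limma. The log2 difference in MCF10A cells minus that in HMLE cells was 1.66 for ST14 (adjusted p = 4.97e-05), 2.18 for PRSS8 (adjusted p = 6.51e-10), 2.59 for SPINT1 (adjusted p = 4.23e-12), 2.82 for SPINT2 (adjusted p = 5.31e-10), 3.92 for SLPI (adjusted p = 2.58e-13) and 3.19 for PI3 (adjusted p = 4.64e-11). Every HMLE Snail array and every MCF10A Snail array was below the vector arrays of its line, so the lines differed in size and not in direction. Beside these values, the summed mesenchymal markers rose from at most 66.8 to at least 92.5 with Snail in HMLE cells. In MCF10A cells they rose from at most 67.2 to at least 69.4. The same difference of Snail effects was called positive for all 5 epithelial markers, from 1.03 to 5.07, the latter for CDH1. It was also called positive for all 4 basal markers, from 3.55 to 4.98. The part of these markers was not tested.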

How the results depend on the processing

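Of 1194 values for single genes under the alternatives, 1138 kept their direction and their side of the threshold, 40 lost the call, 16 gained one and 0 reversed. For counts of members the numbers were 336 unchanged within 1.5 times and 38 moved, of 374. The count of 7 genes fallen was 7 for every array left out in the 4 comparisons with vector and for the labelled Twist arrays against HMLE vector. It was 6 where dim genes were filtered, since TMPRSS4 is below the filter. The 2-fold limit left 2 for Snail in MCF10A cells, and 1 to 3 with an array left out, an alternative chosen after seeing the data. The same alternative gave 7 throughout for both inserts in HMLE cells, 6 throughout for the labelled Twist arrays against MCF10A vector and 6 to 7 against HMLE vector. For MCF10A vector against HMLE vector, the 1 fallen gene, TMPRSS4, became 0 with quantile normalisation, median centring, trended variance, the dim filter, those groups alone, the replicate block (TMPRSS4 -0.21, limma adjusted p = 0.05), an adjusted p under 0.01 or the 2-fold limit, and 0 to 1 with an array left out, and the 4 risen genes became 2 at 2-fold. For HMLE Snail against Twist, the 2 risen genes became 0 with those groups alone, at adjusted p under 0.01 and at 2-fold, and 0 to 2 with an array left out, and 1 fell (ST14, -0.43) with array weights, and 0 to 1 with an array left out. For the labelled Twist arrays against HMLE Twist, the 1 risen gene became 0 with median centring, at adjusted p under 0.01 and at 2-fold, 3 with array weights, and 4 with trended variance or the dim filter, and 0 to 2 with an array left out. There 1 gene fell with array weights and 0 to 1 with an array left out. Array weights gave HMLE Twist replicate 3 a weight of 77.3 against 0.18 and 0.22 for the other two, so these counts rest largely on that array. The difference of Snail effects for TMPRSS4 passed with array weights (0.31, limma adjusted p = 0.0225). The replicate block changed no other call. The causes of the other changes were not tested.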

Other observations

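Some genes near this protease system behaved differently from the 7 members. TMPRSS15 and TFPI were among the rises in HMLE cells with both inserts, and for both the Snail effect differed between the lines (-5.67 for TMPRSS15, limma adjusted p = 1.9e-12, and -4.97 for TFPI, limma adjusted p = 6.6e-15). SERPINE2, an inhibitor of prostasin, rose by 3.03 ± 0.06 on the labelled Twist arrays against MCF10A vector but stood at 12.22 there and 12.17 in HMLE Twist arrays. KLK7 fell more with Snail in MCF10A than in HMLE cells, with a difference of effects of -2.85 (limma adjusted p = 1.9e-11), opposite in sign to that of the 6 members called.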
